A study of Mus musculus with 6 samples.

Results

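The MYC family and the network of proteins around its partner MAX were followed here as 8 genes: Myc, Mycn, Mycl, Max, Mxd1, Mxd4, Mnt and Mlx. The members were chosen by name, and they are 8 of the 16557 genes listed in at least 1 of the deposited tables. All 8 were listed for MYC spinal replicates 1 and 2 and for eRT replicate 3, and 7 for each of the other 3 tumors, where Mycn was missing and counted as 0. Single-cell RNA sequencing had been done on rhabdoid tumors of 6 mice, 3 MYC spinal tumors and 3 extracranial rhabdoid tumors (eRT), and each tumor came from a different mouse. All 6 mice carried Smarcb1 fl/fl alleles, recombined after tamoxifen was given to their pregnant mothers, and no tumor or tissue from mice without these alleles was included as a control. MYC spinal replicates 1, 2 and 3 were from mice with the genotype Rosa26-creERT2::Smarcb1 fl/fl, at 19, 26 and 17 weeks. eRT replicate 1, a gland tumor at 17 weeks, had the same genotype. eRT replicates 2 and 3, a jaw tumor at 29 weeks and a shoulder tumor at 22 weeks, were Sox2-creERT2::Smarcb1 fl/fl. Rosa26 drives the recombinase broadly and Sox2 in fewer cells, and subtype and Cre driver cannot be told apart for these last 2 tumors.

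MYC, MYCN and MYCL are transcription factors that bind DNA as dimers with MAX, at the E-box CACGTG, and raise transcription of genes for ribosome assembly, nucleotide and polyamine synthesis and the cell cycle. MXD1, MXD4 and MNT also dimerize with MAX, occupy the same sites and recruit SIN3 and histone deacetylases, which repress them, and MXD genes are known for their rise as cells stop dividing and differentiate. MLX is a second hub: it pairs with MXD1, MXD4 and MNT, and with the glucose-responsive factors MLXIP and MLXIPL, whose targets include Txnip and Arrdc4. Rhabdoid tumors lack SMARCB1, a subunit of the SWI/SNF chromatin remodeler, and one of their molecular groups is named for MYC.

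The E-box was read from the promoter windows of RefSeq on GRCm38.p6, each with 250 bases before and 50 after a start site. CACGTG, which reads the same on both strands, stood in 7.15% of all 32851 windows. Of the members, 7 had a window, and 4 of these held the E-box, in Max, Mxd4, Mnt and Mlx. Myc had no entry. Among listed MYC targets with a window, 3 of 16 nucleolar, 5 of 15 metabolic and 1 of 5 cell cycle genes held it. So did 1 of 2 MLX and Mondo targets, and 8.09% of all genes. Windows of 5 genes are printed 5′ to 3′ on the strand of the gene, with the E-boxes in capitals. They were picked among windows with the E-box, for genes whose values are given below: the hub Max, the repressor Mxd4, the MYC targets Cdk4 and Slc16a1, and the MLX target Arrdc4. Other genes with values below lack it. The E-box began at -3 from the start site in Max, at -219 in Mxd4, at -200 in Slc16a1 and at -193 in Arrdc4, and the Cdk4 window held 4, at -172, -118, -98 and -11. A match of letters is not a binding site.
Max, chr12:76962199-76962498, minus strand: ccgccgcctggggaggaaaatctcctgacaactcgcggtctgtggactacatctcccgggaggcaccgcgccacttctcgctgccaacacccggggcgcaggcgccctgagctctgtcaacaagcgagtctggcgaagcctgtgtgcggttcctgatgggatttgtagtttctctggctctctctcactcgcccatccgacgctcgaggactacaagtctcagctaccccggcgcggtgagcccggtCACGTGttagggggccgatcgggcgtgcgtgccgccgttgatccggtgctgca
Mxd4, chr5:34187661-34187960, minus strand: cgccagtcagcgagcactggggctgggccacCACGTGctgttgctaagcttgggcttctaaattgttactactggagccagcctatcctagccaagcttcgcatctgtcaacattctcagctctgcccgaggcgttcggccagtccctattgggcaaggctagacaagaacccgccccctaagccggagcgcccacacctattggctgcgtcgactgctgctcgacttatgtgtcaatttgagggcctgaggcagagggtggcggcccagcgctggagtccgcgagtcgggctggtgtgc
Cdk4, chr10:127063285-127063584, plus strand: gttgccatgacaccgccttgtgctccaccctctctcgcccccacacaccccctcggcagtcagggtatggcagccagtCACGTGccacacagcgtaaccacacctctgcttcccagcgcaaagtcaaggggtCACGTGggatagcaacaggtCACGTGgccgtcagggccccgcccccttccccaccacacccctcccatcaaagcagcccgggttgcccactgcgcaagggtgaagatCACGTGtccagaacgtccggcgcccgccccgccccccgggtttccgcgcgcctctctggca
Slc16a1, chr3:104638414-104638713, plus strand: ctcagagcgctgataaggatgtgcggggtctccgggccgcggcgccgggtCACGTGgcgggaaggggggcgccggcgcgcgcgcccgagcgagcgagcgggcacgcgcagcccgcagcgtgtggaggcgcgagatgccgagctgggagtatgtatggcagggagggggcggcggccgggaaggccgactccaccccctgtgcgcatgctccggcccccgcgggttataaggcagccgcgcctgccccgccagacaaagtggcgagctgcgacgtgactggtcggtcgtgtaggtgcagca
Arrdc4, chr7:68749189-68749488, minus strand: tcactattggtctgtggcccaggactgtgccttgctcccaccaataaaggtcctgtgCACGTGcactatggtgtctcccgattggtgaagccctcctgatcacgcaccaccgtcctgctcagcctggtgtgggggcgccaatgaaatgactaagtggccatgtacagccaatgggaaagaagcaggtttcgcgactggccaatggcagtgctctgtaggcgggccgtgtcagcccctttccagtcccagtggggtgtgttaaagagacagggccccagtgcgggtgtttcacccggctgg

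In the GENCODE M21 annotation of GRCm38 all 8 members are protein-coding genes. Myc lies at chr15:61985391-61990374 on the plus strand, Mycn at chr12:12936093-12941914 on the minus strand and Mycl at chr4:122995652-123002485 on the plus strand. Max lies at chr12:76937269-76962201, Mxd1 at chr6:86647042-86669161 and Mxd4 at chr5:34173883-34187720, all on the minus strand. Mnt and Mlx share chromosome 11, at chr11:74830920-74845725 and chr11:101087277-101092207, both on the plus strand.

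The tables held 3867853 to 26191718 UMIs (counted RNA molecules) per tumor, and 22163 cells were kept. Cells of 3 clusters in the eRT and 2 in the MYC spinal tumors were taken as tumor cells because Smarcb1 was nearly missing from them. In the 6 tumors 0, 0, 22, 3, 2 and 6 Smarcb1 UMIs were counted in these cells. At the level of all other cells of the same tumor, 33.1, 1.19, 333.9, 28.0, 26.1 and 154.3 were expected. The tumor cells numbered 98, 14 and 1464 in MYC spinal replicates 1 to 3 and 68, 202 and 627 in eRT replicates 1 to 3. Ptprc, the pan-leukocyte gene, lay between 8.28 and 45.4 CPM (counts per 1000000 UMIs) in tumor cells and between 113.2 and 431.0 CPM in immune-like cells. The summed level of 8 fibroblast markers was 617.7 to 3090 CPM in tumor cells and 2.05 to 30.02 CPM in immune-like cells. The tables number their cells without barcodes, so that barcodes shared between libraries could not be counted. Levels below are CPM of the UMIs summed over a kind of cell in a tumor. Intervals are exact Poisson 95% intervals and, like the limit of 3 UMIs given for a count of 0, they cover counting error only.

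Myc was found in the tumor cells of 4 of the 6 tumors and in none of the tumor cells of the other 2. In MYC spinal replicate 1, 0 Myc UMIs were counted among 550359 UMIs of 98 tumor cells, which allows up to 5.45 CPM. Its immune-like cells stood at 66.8 CPM, a level at which 36.8 UMIs would have been expected. Of these 1298 immune-like cells, 865 were T cell-like and 187 NK cell-like. Its macrophage-like cells, without dividing ones, stood at 29.9 CPM (16.7 to 49.3, 15 UMIs). The tumor cells of MYC spinal replicate 2 also had 0 Myc UMIs, but of only 44013 UMIs, which allows up to 68.2 CPM, above the 11.3 CPM of its immune-like cells. In MYC spinal replicate 3 tumor cells held 36.2 CPM (32.2 to 40.6, 290 UMIs) and immune-like cells 13.9 CPM. The 3 eRT had 51.3 (32.9 to 76.3), 64.2 (45.9 to 87.4) and 23.5 (18.4 to 29.7) CPM in tumor cells, and 30.7, 19.4 and 16.8 CPM in immune-like cells. Myc was thus higher in tumor cells in 4 tumors and lower in MYC spinal replicate 1, and the ranges overlapped, at 0 to 64.2 CPM in tumor cells against 11.3 to 66.8 CPM in immune-like cells. The difference did not pass the test, at a log2 fold change of 0.20 ± 0.75 (SE, n = 6 tumors; edgeR's quasi-likelihood test with the tumor as a block, adjusted p = 0.892), and it was -0.16 with DESeq2. In the same tumor cells of MYC spinal replicate 1, Max stood at 81.8 CPM (59.6 to 109.4) and Mlx at 45.4 CPM (29.4 to 67.1), so other members were detected in them.

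**Figure D1:**
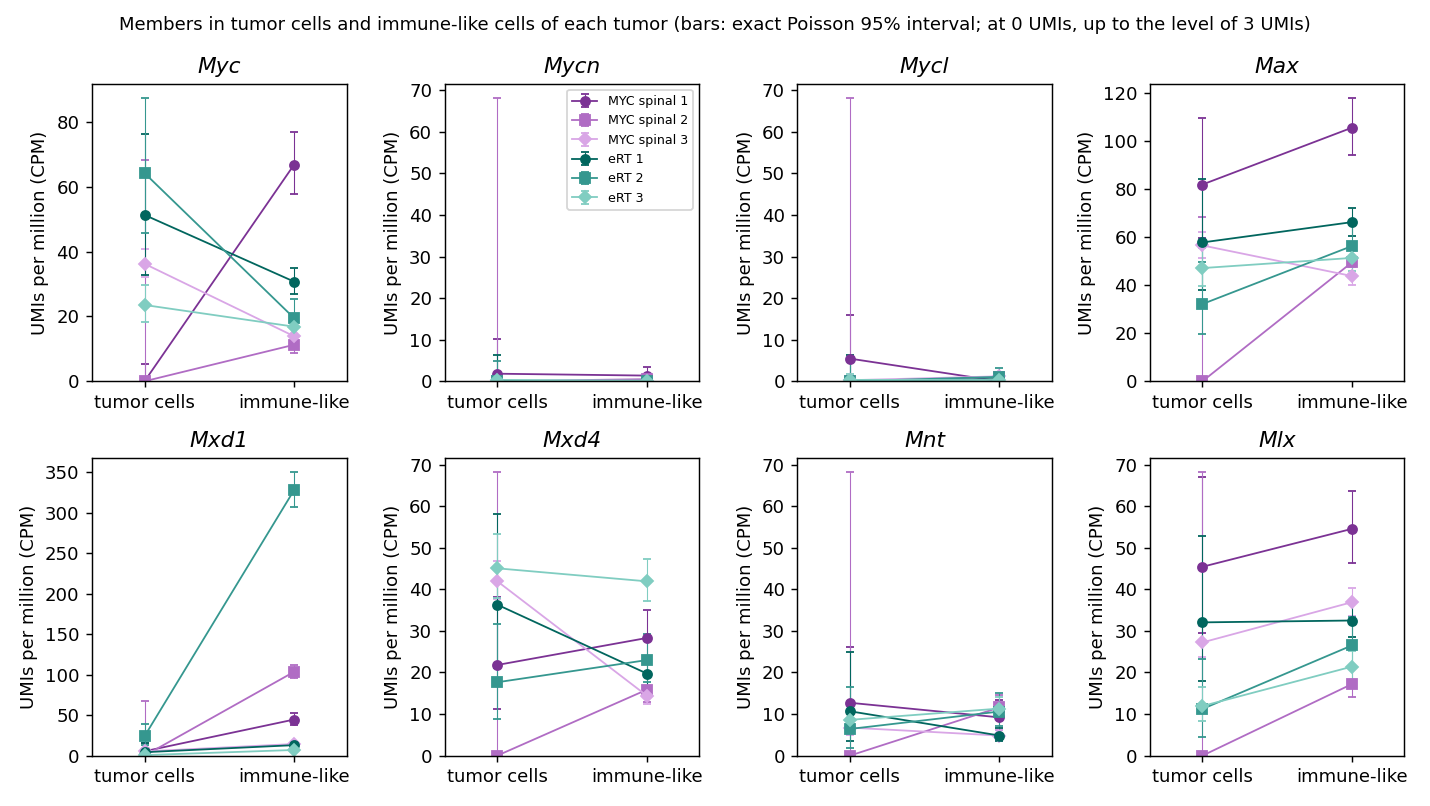
Each panel shows 1 member in tumor cells and immune-like cells, in CPM, with a line for each of the 6 tumors and exact Poisson 95% intervals (at 0 UMIs the bar ends at the level of 3 UMIs). Myc rises or falls between the kinds depending on the tumor, while all 6 lines of Mxd1 run upward from tumor cells to immune-like cells.

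The share of cells with a Myc UMI depends on depth, so cells were also thinned to 1000 UMIs. Before thinning, 16.1% of tumor cells of MYC spinal replicate 3 and 25%, 8.42% and 9.73% of those of the eRT had one, against 4.66%, 12.6%, 2.89% and 3.59% of their immune-like cells. After thinning the shares in tumor cells were 3.14%, 5.88%, 4.97% and 2.23%, and those in immune-like cells 1.43%, 3.33%, 1.61% and 1.91%. In MYC spinal replicate 1, 0 of 97 thinned tumor cells had a Myc UMI (exact binomial interval 0 to 3.73%), and 5.67% of immune-like cells did. The share was 5.80% in T cell-like and 10.1% in NK cell-like cells of this tumor. In its macrophage-like cells it was 1.97% (0.409 to 5.66%, 3 of 152 cells), and 0 of 39 monocyte-like cells had a Myc UMI. The intervals of tumor and macrophage-like cells overlapped, so the thinned shares show no difference between them. Median depths before thinning were 5669 UMIs in the tumor cells and 1906 in the immune-like cells.

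Myc also differed between clusters of tumor cells within an eRT. In eRT replicate 2 it was 92.5 CPM (62.9 to 131) in the 55 cells of cluster 2 and 7.21 CPM (0.873 to 26.0) in the 145 cells of cluster 11, intervals that do not overlap. The 31 Myc UMIs of cluster 2 lay in 13 cells, with up to 9 in a cell, a spread between cells that the interval does not cover. Median depths were 5804 UMIs in cluster 2 and 1577 in cluster 11. In eRT replicate 3 the same clusters had 24.9 CPM (19.3 to 31.7) and 13.4 CPM (4.35 to 31.3), with overlapping intervals. In eRT replicate 1 cluster 11 had 0 UMIs of 50651, which allows up to 59.2 CPM, and cluster 2 had 51.8 CPM. Cluster 2 was led by C1qtnf3, Efemp1 and Igfbp3, and cluster 11 by Ctla2a, Gap43 and Npy. The remaining eRT cluster, 19, expressed the epithelial genes Epcam, Krt8 and Krt18, came almost wholly from eRT replicate 1 and had 62.4 CPM (34.1 to 104.7) there. The clusters of MYC spinal replicate 3 had overlapping intervals, at 35.5 CPM (31.3 to 40.1) in cluster 1 and 44.0 CPM (29.5 to 63.2) in cluster 22. These differences between clusters were not tested over tumors.

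**Figure D2:**
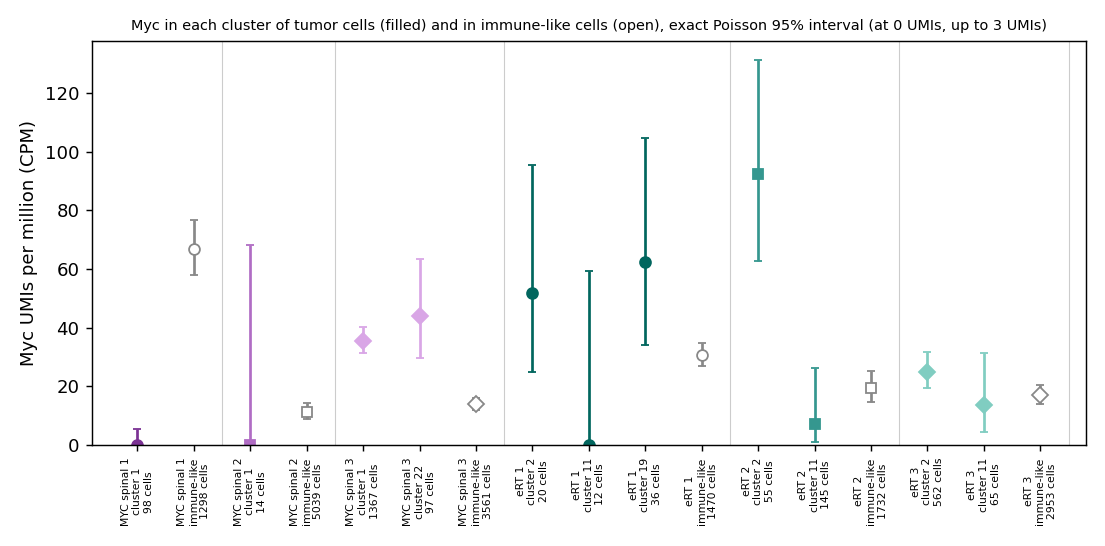
Myc level in CPM in each cluster of tumor cells (filled) and in the immune-like cells (open, gray) of each tumor, with exact Poisson 95% intervals and the number of cells. Clusters 2 and 11 of eRT replicate 2 stand at 92.5 and 7.21 CPM, and the tumor cells of MYC spinal replicate 1 at 0.

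Mycn, the family member of the embryonic nervous system, and Mycl, a family member known in dendritic cells, were nearly missing. In 2473 tumor cells Myc was found in 331, Mycn in 2 and Mycl in 6, and no cell held more than 1 of the 3. Of the cells with Myc, 265 had a single UMI and 66 had 2 or more. The Mycn UMIs lay in MYC spinal replicate 1 and eRT replicate 3, with 1 each. Only genes found in at least 3 cells of a tumor are listed for it. In MYC spinal replicate 3 and eRT replicates 1 and 2, where Mycn was not listed, fewer than 3 cells could still have held it. Of the 6 Mycl UMIs, 3 were in MYC spinal replicate 1 (5.45 CPM, 1.12 to 15.9), 2 in MYC spinal replicate 3 and 1 in eRT replicate 3. In immune-like cells Mycn had 8 UMIs in all, 5 in T cell-like and 3 in B cell-like cells. Mycl had 30, of which 17 were in macrophage-like and 4 in dendritic-like cells, and none in T cell-like, NK cell-like or neutrophil-like cells. Dendritic-like cells, with 18.6, 5.59 and 5.54 CPM in eRT replicates 1, 2 and 3 from 1, 2 and 1 UMIs, had the highest mean of the named kinds. Neither gene passed the filter on low counts in any comparison.

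Across the tested members, tumor cells differed from immune-like cells of the same tumors in 1 gene, Mxd1, which was lower. Of 9425 genes tested 26.4% passed, 11.7% higher and 14.7% lower in tumor cells. The higher ones made up 44.5% of the calls, and 58.7% without TMM factors, which moved the median of all genes from -0.03 to 0.20. Of the 8 members 6 passed the filter and 1 of these passed the test. The median log2 fold change of the 6 was -0.30 and that of all genes -0.03.

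Max, the shared partner, was 81.8, 0, 56.5, 57.7, 32.1 and 47.0 CPM in the tumor cells of MYC spinal replicates 1 to 3 and eRT replicates 1 to 3. In immune-like cells it was 105.4, 49.5, 43.7, 66.1, 56.2 and 51.3 CPM. It lay lower in tumor cells in MYC spinal replicate 1 and the 3 eRT and higher in MYC spinal replicate 3, with a log2 fold change of -0.51 ± 0.31 (adjusted p = 0.264). Mlx was 45.4, 0, 27.2, 32.1, 11.2 and 11.9 CPM in tumor cells and 54.6, 17.2, 36.9, 32.5, 26.5 and 21.4 CPM in immune-like cells. It was lower in tumor cells in each of the 5 tumors other than MYC spinal replicate 2, at -0.77 ± 0.28 (adjusted p = 0.066), which missed the threshold. In MYC spinal replicate 2, a count of 0 in 14 tumor cells allows up to 68.2 CPM, above the immune-like level of both genes, so that tumor shows no direction for them. Mlx passed with DESeq2 (-0.85, adjusted p = 0.00947), with the highest Scrublet scores left out (-0.89, adjusted p = 0.038), at clustering resolution 0.4 (-0.70, adjusted p = 0.0482) and without MYC spinal replicate 2 (-0.73, adjusted p = 0.0444).

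Mxd1, the repressor best known from maturing myeloid cells, was 5.45, 0, 5.25, 4.27, 24.1 and 0.663 CPM in tumor cells, from 3, 0, 42, 2, 15 and 2 UMIs. In immune-like cells of the same tumors it was 44.7, 103.7, 14.4, 13, 328.4 and 7.04 CPM. All 6 tumors were lower in tumor cells, although the ranges overlapped across tumors, and the log2 fold change was -2.89 ± 0.41, or 7.43-fold lower (adjusted p = 0.000484). Immune-like cells of MYC spinal replicates 2 and 3 and eRT replicate 2 include at least 10 neutrophil-like cells each, where Mxd1 was highest. Set against macrophage-like cells alone, whose levels were 11.4, 40.0, 17.2, 12.8, 107.7 and 4.01 CPM, tumor cells had the lower value in each tumor but MYC spinal replicate 2, where the limit of 68.2 CPM shows no direction, and Mxd1 did not pass the filter there and was not tested. The 24.1 CPM of eRT replicate 2 came from cells with 805.5 CPM of the neutrophil genes S100a8 and S100a9, and the part of free neutrophil RNA in it was not tested. The call was lost under 1 alternative, in which clusters with Smarcb1 under 0.5 of its expected level, neutrophil-like cells among them, were counted as tumor cells.

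The other repressors did not pass. Mxd4 was 21.8, 0, 42.0, 36.3, 17.7 and 45.1 CPM in tumor cells and 28.3, 15.9, 14.4, 19.8, 23.0 and 41.9 CPM in immune-like cells, higher in 3 tumors and lower in MYC spinal replicate 1 and eRT replicate 2 (0.14 ± 0.37, adjusted p = 0.840). Mnt, a widely expressed repressor, was low throughout, at 0 to 12.7 CPM in tumor cells and 4.83 to 11.6 CPM in immune-like cells (-0.08 ± 0.36, adjusted p = 0.918). 

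Among the other genes of the network, 1 of 3 of the extended network, both MLX and Mondo targets and 2 of 6 corepressors were lower in tumor cells, beside 14.7% of all genes. Of the targets that MYC activates 0 of 20 nucleolar, 3 of 17 metabolic and 1 of 8 cell cycle genes were higher, together a smaller share than the 11.7% of all genes. Of the extended network 3 of 5 genes were tested, and Mlxip, the glucose-responsive partner of MLX, fell by 1.63 ± 0.44 on the log2 scale (adjusted p = 0.019, lower in each tumor but MYC spinal replicate 2, where 0 UMIs show no direction). Both MLX and Mondo targets fell. Arrdc4, an arrestin-domain protein, had a mean of 15.1 ± 16.6 CPM (SD, n = 6) in tumor cells and 56.2 ± 32.4 CPM in immune-like cells (-2.40 ± 0.49, adjusted p = 0.00426, lower in MYC spinal replicate 3 and the 3 eRT). Txnip, the thioredoxin-binding protein, had 29.3 ± 24.8 and 85.2 ± 52.2 CPM (-1.51, adjusted p = 0.0113). Of 6 corepressor genes, 2 fell: Sap30, a subunit of the SIN3 complex (-1.84 ± 0.38, adjusted p = 0.00457), and Sin3b, its scaffold (-0.93 ± 0.24, adjusted p = 0.0152). Of 14 coactivators of MYC and 11 genes of MYC turnover, 0 passed.

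Of 20 nucleolar MYC targets 0 passed (median log2 fold change 0.17 beside -0.03 for all genes). Of 17 metabolic targets 3 rose: Slc16a1, a lactate transporter (1.88 ± 0.40, adjusted p = 0.0057), Srm, a spermidine synthase (1.16 ± 0.28, adjusted p = 0.0107), and Cad, which starts pyrimidine synthesis (1.15 ± 0.30, adjusted p = 0.016). Each was higher in 6 of 6 tumors. Of 8 cell cycle targets only Cdk4 rose, from 127.3 ± 36.5 CPM in immune-like cells to 261.4 ± 98.6 CPM in tumor cells (0.80 ± 0.24, adjusted p = 0.030). Of 7 genes that MYC represses, Ndrg2 (5.59 ± 0.61, adjusted p = 9.37e-05) and the kinase inhibitor gene Cdkn2b (1.97 ± 0.40, adjusted p = 0.00545) were higher in tumor cells, the opposite of their name in the list. Ndrg2 is also expressed in many non-immune cells. Of 17 proliferation markers tested 4 rose in tumor cells, beside 11.7% of all genes, and 13 did not pass. A negative log2 fold change was found for 5 of the 17. The part of cell division in the changes of the targets was not tested.

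The subtypes were compared next. In tumor cells 4 members were tested between 3 eRT and 3 MYC spinal tumors, and 0 of them passed, as did 0% of 5709 genes with edgeR (192 at an unadjusted p under 0.05, and 20 genes past the threshold with DESeq2). Myc was at 1.51 ± 1.06 (95% interval -0.56 to 3.58), Mxd4 at 0.44 ± 0.58, Max at -0.00 ± 0.52 (-1.03 to 1.02) and Mlx at -0.55 ± 0.57 on the log2 scale, eRT minus MYC spinal. The groups overlapped for Myc, since 36.2 CPM in MYC spinal replicate 3 lay within the eRT range of 23.5 to 64.2 CPM.

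In immune-like cells 6 members were tested, and 0 passed, as did 0% of 10676 genes (369 at an unadjusted p under 0.05, and 33 genes with DESeq2). Mxd1 had the widest interval, at 1.13 ± 1.46 (-1.73 to 4.00), since its immune-like levels ran from 7.04 to 328.4 CPM in the eRT alone. Myc was at -0.22 ± 0.62, Mxd4 at 0.69 ± 0.46, Mnt at 0.15 ± 0.59, Max at -0.05 ± 0.37 and Mlx at -0.29 ± 0.41. For the difference between the subtypes in the contrast of tumor with immune-like cells, no tested member or gene passed (0% of 9425 with edgeR, 248 at an unadjusted p under 0.05, 3 genes with DESeq2). For Myc the difference of the contrasts was 2.10 ± 1.58.

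Over the kinds of cells, Mxd1 was the member with the widest range of levels. Each kind found in at least 3 tumors with at least 10 cells was compared with the mean of the other kinds, for 7619 genes and 5 members, Myc, Max, Mxd1, Mxd4 and Mlx. The members themselves were left out of the genes on which cells were clustered. Over 10 kinds and 5 members 8 pairs passed, while 2.32% (progenitor-like cells) to 44.1% (tumor cells) of all 7619 genes passed in a kind.

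Mxd1 accounted for 4 of these pairs. In neutrophil-like cells it was 298.6 CPM (271.8 to 327.3) in MYC spinal replicate 2, 135.9 CPM (99.5 to 181.3) in MYC spinal replicate 3 and 1223 CPM (1085 to 1374) in eRT replicate 2, all above every tumor-cell value, at a log2 fold change of 4.22 ± 0.30 (adjusted p = 8.32e-15, where 28.9% of genes passed and 18.6% were higher). In monocyte-like cells it was 26.5 to 49.0 CPM in 5 tumors and 520.1 CPM in eRT replicate 2 (1.37 ± 0.27, adjusted p = 0.000186, where 15.1% of genes passed and 14.3% were higher). The monocyte call rested on eRT replicate 2, without which it was 0.82 (adjusted p = 0.0548), and was also lost with Smarcb1 under 0.5 (1.40, adjusted p = 0.101). Osteoclast-like cells, with 5.03, 5.99 and 0 CPM, were low (-1.91 ± 0.53, adjusted p = 0.00604, where 23.4% of genes passed and 10.0% were lower). This call was lost without MYC spinal replicate 3 (-1.65, adjusted p = 0.233) or eRT replicate 1 (-2.16, adjusted p = 0.0513), and with Smarcb1 under 0.5 (-1.57, adjusted p = 0.312). Tumor cells had the lowest fold change of the 10 kinds (-2.70 ± 0.39, adjusted p = 2.46e-07, where 44.1% of genes passed and 18.6% were lower).

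The level of Mxd1 in eRT replicate 2 was the highest of the 6 tumors in neutrophil-like, monocyte-like, macrophage-like, T cell-like and NK cell-like cells, at 1223, 520.1, 107.7, 118.4 and 102.0 CPM. Neutrophil-like cells of that tumor held 11.01 Mxd1 UMIs per 1000 UMIs of S100a8 and S100a9 together. Its monocyte-like cells held 210.2, its T cell-like cells 104.8, its macrophage-like cells 96.0, its B cell-like cells 34.5 and its tumor cells 29.9. Mxi1, a close relative of the MXD genes, passed in the same myeloid kinds, in neutrophil-like cells at 2.69 ± 0.48 (adjusted p = 3.22e-05) and in monocyte-like cells at 1.63 ± 0.39 (adjusted p = 0.00231). In NK cell-like cells Mxi1 had 0 UMIs in each of 6 tumors.

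**Figure D3:**
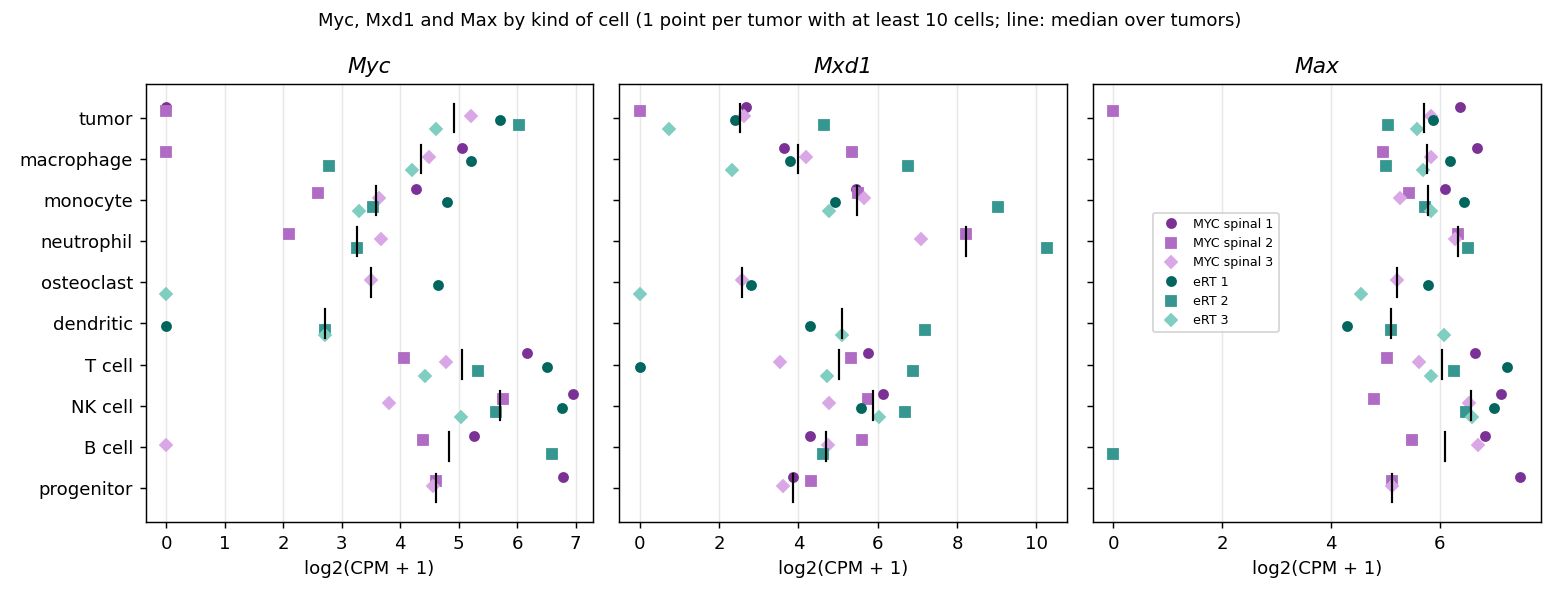
Myc, Mxd1 and Max by kind of cell as log2(CPM + 1), with 1 point for each tumor holding at least 10 cells of the kind and a line at the median. Mxd1 is highest in neutrophil-like cells, at 135.9 to 1223 CPM, and low in tumor and osteoclast-like cells, while Max covers a similar range in most kinds.

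Of the other members, Max rose in neutrophil-like cells, at 80.1, 76.8 and 90.1 CPM (1.79 ± 0.28, adjusted p = 2.88e-06). The size of this change depended on the scaling, at 0.94 without TMM factors, where the median of all genes fell to -0.87 and 18.5% of calls in place of 64.4% were higher, and at 1.98 with DESeq2. S100a8 and S100a9 made up 353800, 220400 and 111100 CPM of the neutrophil-like sums of MYC spinal replicates 2 and 3 and eRT replicate 2. The call was lost with Smarcb1 under 0.5 as the rule for tumor cells (0.89, adjusted p = 0.169), which moves a cluster of neutrophil-like cells to the tumor cells. By mean CPM neutrophil-like cells, at 82.3 ± 6.93, came after NK cell-like cells, at 94.6 ± 38.8. Mxd4 was higher in T cell-like cells, with 16 to 56.1 CPM over 6 tumors (0.98 ± 0.28, adjusted p = 0.00874, where 19.8% of genes passed and 11.9% were higher), and lost this without eRT replicate 2 (0.71, adjusted p = 0.187), at resolution 0.4 (0.97, adjusted p = 0.0544) and without the tumor block (0.94, adjusted p = 0.0694). In tumor cells Mxd4 was 0.62 ± 0.25 above the mean of the other kinds (adjusted p = 0.0444, 25.5% of genes higher), a call that 8 of 16 alternatives lost, among them the omission of MYC spinal replicate 3 (0.30, adjusted p = 0.482).

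Myc was higher in NK cell-like cells than in the mean of the other kinds (1.34 ± 0.41, adjusted p = 0.022, where 14.0% of genes passed and 6.55% were higher). Its levels there were 123.3, 53.3, 13.1, 107.7, 48.8 and 32.0 CPM in MYC spinal replicates 1 to 3 and eRT replicates 1 to 3, so MYC spinal replicate 3 was low and MYC spinal replicate 1 high. The call was lost without MYC spinal replicate 1 (0.97, adjusted p = 0.105), MYC spinal replicate 2 (1.32, adjusted p = 0.052) or eRT replicate 1 (1.29, adjusted p = 0.118), and at both other clustering resolutions, 0.4 (1.03, adjusted p = 0.303) and 1.6 (1.01, adjusted p = 0.113). In tumor cells Myc was 0.61 ± 0.36 above the mean of the other kinds (adjusted p = 0.168), and without MYC spinal replicate 1, 1 of the 2 tumors with 0 Myc UMIs in tumor cells, it passed (0.94, adjusted p = 0.00829). No member passed in macrophage-like, dendritic-like, B cell-like or progenitor-like cells, where 18.5%, 5.50%, 3.48% and 2.32% of genes did.

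Ordered by mean CPM, Myc ran from NK cell-like (63.0 ± 43.3) over progenitor-like (51.7 ± 49.6), T cell-like (43.8 ± 30), B cell-like (38.2 ± 41.0), tumor (29.2 ± 26.5), macrophage-like (18.9 ± 14.2), monocyte-like (13.5 ± 7.87), osteoclast-like (11.4 ± 12.02) and neutrophil-like (7.90 ± 4.31) to dendritic-like cells (3.71 ± 3.21), each with its SD over 3 to 6 tumors. No neighbors in this order differed by more than the larger of their SDs, and the same held for every other member except Mxd1. For Mxd1 the order was neutrophil-like (552.5 ± 586.3), monocyte-like (118.6 ± 196.9), dendritic-like (65.7 ± 69.3), NK cell-like (60.2 ± 25.4), T cell-like (41.1 ± 42.4), macrophage-like (32.2 ± 39.0), B cell-like (29.1 ± 12.9), progenitor-like (14.7 ± 3.98), tumor (6.62 ± 8.86) and osteoclast-like cells (3.68 ± 3.22). Here 1 of 9 steps, from B cell-like to progenitor-like cells, was larger than that spread.

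**Figure D4:**
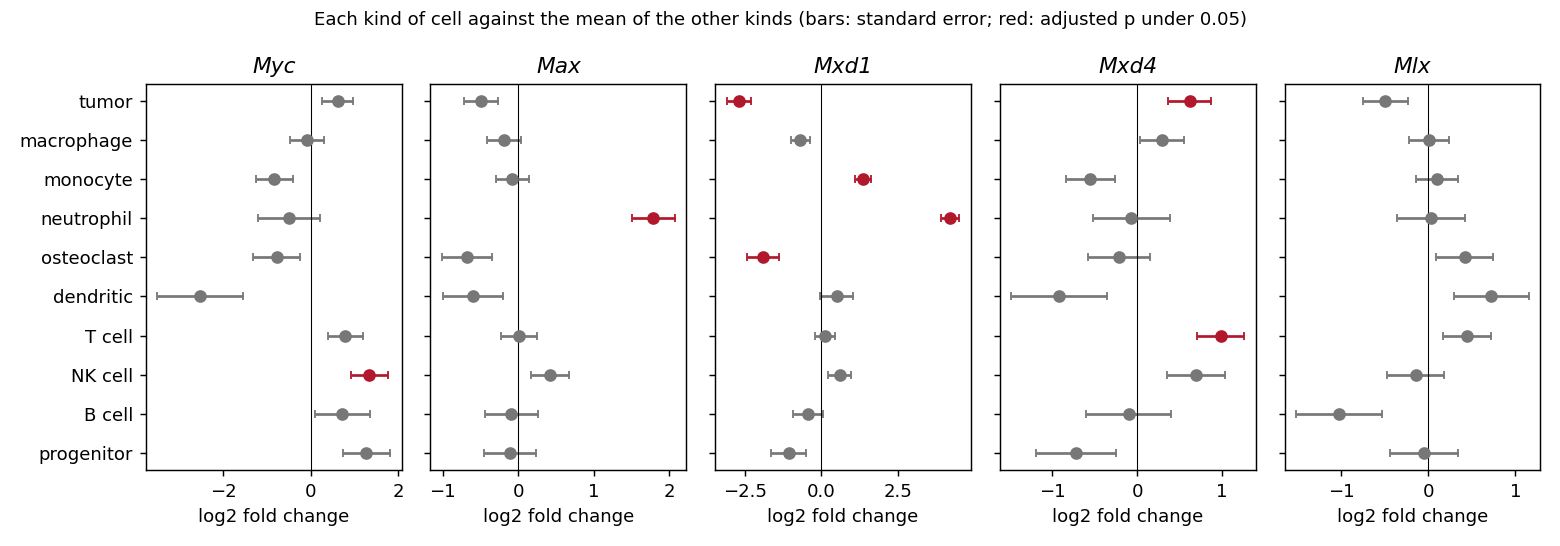
Log2 fold change of each kind of cell against the mean of the other kinds for 5 members, with standard errors and red points for adjusted p under 0.05. The 8 red points are 4 for Mxd1, 2 for Mxd4 and 1 each for Max in neutrophil-like and Myc in NK cell-like cells. Of all genes, 2.32% (progenitor-like cells) to 44.1% (tumor cells) passed in a kind.

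Nucleolar MYC targets, genes of ribosome assembly, differed between the kinds as well. In progenitor-like cells 8 of 18 tested were higher than in the mean of the other kinds, where 2.32% of all genes passed, and all 18 had a positive log2 fold change (median 1.06 beside 0.03 for all genes). Most progenitor-like cells came from MYC spinal replicate 2, with 462 of 496 in cluster 9 and 387 of 412 in cluster 12. Without that tumor 18 genes in place of 177 passed in this kind, and the nucleolar targets were not looked at there. In tumor cells 8 of 18 were higher, beside 25.5% of all genes (median 0.38 beside 0.10), and in NK cell-like cells 3 of 18, beside 6.55% (median 0.39 beside -0.08). In neutrophil-like cells 14 of 18 were lower and 0 higher, beside 10.3% of all genes lower (median -1.44 beside -0.02). Both MLX and Mondo targets were lower in tumor cells, and both were higher in neutrophil-like cells (1.31 and 1.94 on the log2 scale) and in osteoclast-like cells (1.04 and 1.62).

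Dividing cells were then compared with the others of their kind. Cells with UMIs of at least 3 of 20 proliferation markers were called proliferating, a count that rises with the depth of a cell. In 5 tumors with at least 10 cells of each, 7.30% of 4767 genes passed, 3.84% higher and 3.46% lower (52.6% of calls higher, and 68.4% with DESeq2), and 0 of the 4 tested members did. Myc was 0, 41.7, 27.0, 51.6 and 20.1 CPM in proliferating and 0, 32.4, 62.5, 66.0 and 24.3 CPM in other tumor cells of MYC spinal replicates 1 and 3 and eRT replicates 1, 2 and 3 (0.02 ± 0.24, adjusted p = 0.985). Mxd4 was 20.5, 29.5, 27.0, 0 and 34.7 CPM in proliferating and 22.3, 50.6, 40.6, 20.2 and 47.3 CPM in other tumor cells. It was lower in the 4 tumors other than eRT replicate 2, where 0 of 77478 UMIs show no direction (-0.66 ± 0.22, adjusted p = 0.0734) and passed where at least 5 markers were asked (-0.94, adjusted p = 0.00887). Max (-0.24 ± 0.22) and Mlx (-0.09 ± 0.28) did not pass.

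Some targets of MYC did pass in proliferating tumor cells. Of 18 nucleolar targets 2 rose, Nop56 (0.76 ± 0.17, adjusted p = 0.0114) and Nhp2 (0.65 ± 0.15, adjusted p = 0.0149), both of small nucleolar ribonucleoproteins, and the median was 0.28 beside -0.05 for all genes. Odc1, the ornithine decarboxylase that starts polyamine synthesis, rose (0.93 ± 0.20, adjusted p = 0.00778), and Gpi1, a glycolytic isomerase, fell by 0.47 (adjusted p = 0.0459). Of 5 tested genes that MYC represses 3 fell: Hbp1, a transcriptional brake on the cell cycle (-0.88, adjusted p = 0.0113), Cdkn1a, the kinase inhibitor p21 (-0.83, adjusted p = 0.0342), and Ndrg2 (-0.60, adjusted p = 0.049). Txnip fell by 1.05 (adjusted p = 0.0231), and Ruvbl2, a coactivator ATPase (0.61, adjusted p = 0.0393), and Stub1, a ubiquitin ligase (0.50, adjusted p = 0.0417), rose.

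In macrophage-like cells Mxd4 fell in proliferating cells. It was 4.19, 5.10 and 13.4 CPM in proliferating and 21.1, 30.5 and 43.4 CPM in other macrophage-like cells of MYC spinal replicate 3, eRT replicate 1 and eRT replicate 3, from 4, 2 and 4 UMIs in the former. The groups did not overlap, and the log2 fold change was -2.25 ± 0.36, or 4.76-fold lower (adjusted p = 0.000844, in a comparison where 8.22% of 7626 genes passed, 5.34% higher and 2.88% lower). Of these calls 64.9% were higher, and 79.6% without TMM factors. Of 5 tested members 1 passed. Myc was 29.3, 63.8 and 13.4 CPM in proliferating and 18.6, 30.5 and 17.7 CPM in other cells (0.54 ± 0.28, adjusted p = 0.295). Max (-0.51 ± 0.21, adjusted p = 0.166), Mlx (-0.66 ± 0.28, adjusted p = 0.191) and Mxd1 (-1.24 ± 0.55, adjusted p = 0.208) did not pass. A cluster of 434 eRT cells, with Cenpf and Plk1 among its leading genes, had only 2 macrophage markers, C1qa and C1qb. It took no name, so its cells are outside this comparison.

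Of the lists in macrophage-like cells, 3 of 18 nucleolar targets rose, Nhp2 (0.69), Ncl (0.69) and Nop56 (0.66), and 4 of 15 metabolic targets, among them Shmt2, the mitochondrial serine enzyme (1.16), Paics (0.95) and Impdh2 (0.84), both of purine synthesis. The replication gene Mcm5 (1.40) and Cdk4 (0.84) rose among 7 cell cycle targets. Of 11 genes of MYC turnover 3 rose, of which Plk1 (4.43) and Aurka (2.69) are mitotic kinases. All of these had an adjusted p of 0.0159 or less with edgeR. Nhp2, Nop56 and Stub1 were thus called in both kinds of proliferating cells.

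Mxd3, an MXD gene known for its peak during DNA replication, was higher in proliferating cells of both kinds in the pooled sums, but was too rare to be tested. Proliferating tumor cells held 29 Mxd3 UMIs of 4178879 (6.94 CPM, 4.65 to 9.97), and other tumor cells 2 of 8522362 (0.235 CPM). Proliferating macrophage-like cells held 19 of 1646564 (11.5 CPM), and other macrophage-like cells 5 of 10974364 (0.456 CPM). The tumor cells of eRT replicate 2 show no direction, with 0 UMIs in proliferating and 1 in other cells.

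**Figure D5:**
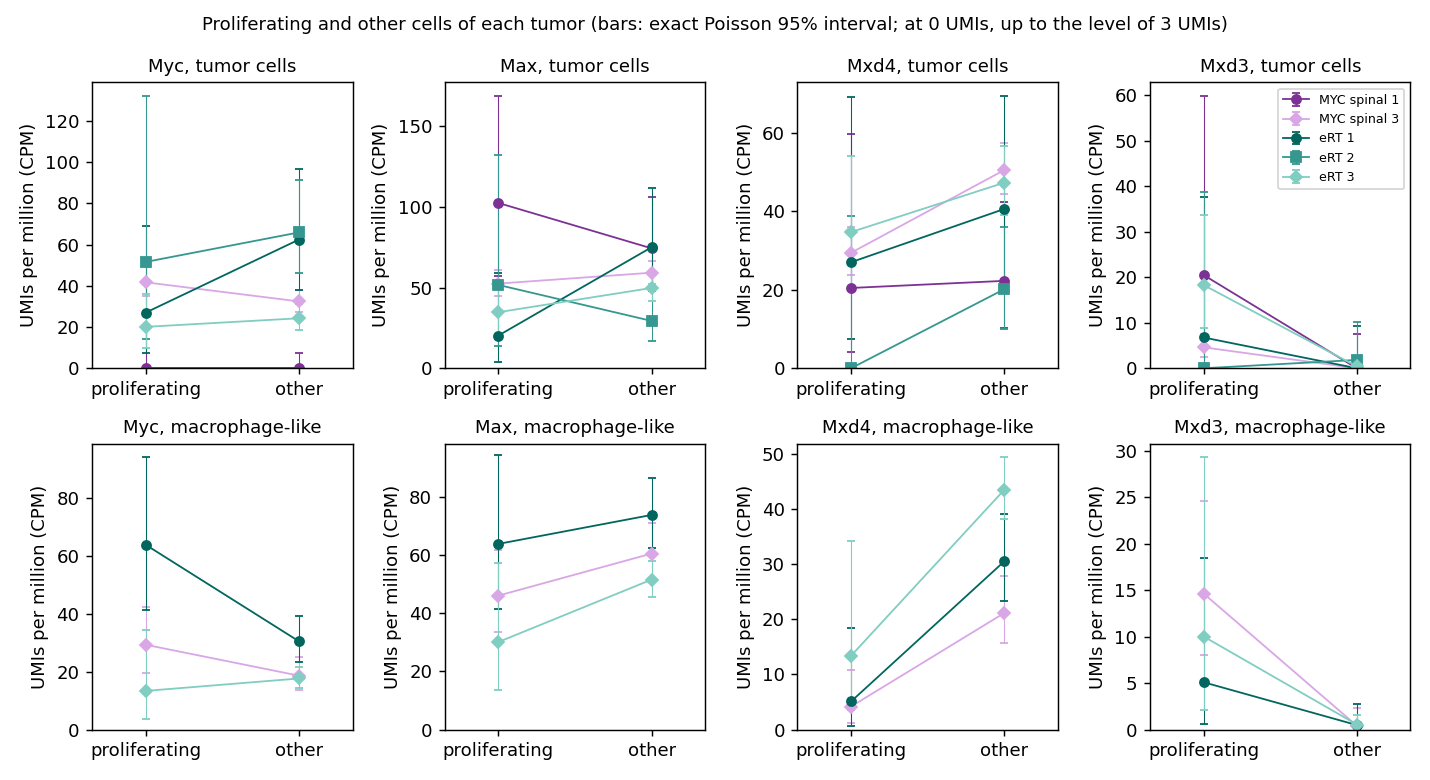
Myc, Max, Mxd4 and Mxd3 in proliferating and other tumor cells (upper row, 5 tumors) and macrophage-like cells (lower row, 3 tumors), in CPM with exact Poisson 95% intervals, and at 0 UMIs a bar up to the level of 3 UMIs. The points of Mxd4 lie lower in proliferating cells in all 5 and all 3 tumors, at 0 UMIs in eRT replicate 2, and those of Mxd3 higher in all but the tumor cells of eRT replicate 2.

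The genes whose levels ran most like a member's were sought over 46 sums of a tumor and a kind of cell, by Pearson's correlation of log2(CPM + 10) across 7446 genes. Sums of a tumor share a library, and shallow sums are noisier. For Myc they were Zgpat (0.695), Rpap3 (0.692) and Agk (0.687). For Mxd1 they were Hdc (0.763), the histidine decarboxylase of granulocytes, Samsn1 (0.761) and Clec4e (0.758), a receptor of myeloid cells, which dropped to 0.574, 0.666 and 0.623 without the neutrophil-like sums. Mycl, above 0 in 15 sums, ran most like Flt3 (0.666), a receptor of dendritic cells and progenitors, Cd209d (0.645) and D13Ertd608e (0.641). Mycn was above 0 in only 5 sums, and its nearest genes, Vpreb1 (0.603), Myl4 (0.591) and Blk (0.583), rest on those few UMIs.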

How the data were processed

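Tumors of 6 mice were dissociated to live single cells, and libraries were made with the 10x Genomics 3′ v2 chemistry. Per the labels and the study's methods, the authors aligned reads to mm10 with Cell Ranger 2.0.2 and deposited 1 table of raw UMI counts for each tumor. These tables list genes found in at least 3 cells. UMIs are counted once per molecule, but only the 3′ end is read and rare genes are missed in most cells. Columns of per-sample values not used number 0. Samples were grouped by the subtype in their labels, and replicates are different mice.

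The study's filter on cells was applied, which drops those under 200 genes or over 25% mitochondrial UMIs. Each cell was scaled to 10000 UMIs, each subtype was integrated in Seurat 5.3.0 (2000 variable genes without Smarcb1, the members and the other listed genes except the proliferation markers, 30 dimensions, 20 neighbors), and clusters were found at resolution 0.8. A name such as macrophage-like needed 3 or more of that type's markers, each detected in 10% or more of the cluster and 1 or more above the remaining cells on the log2 scale, and leading genes (the top 10) that did not go against it, so cell names are rebuilt here and can differ from the study's. Clusters with Smarcb1 under 0.25 of that expected, with at least 10 UMIs expected, were tumor cells. The neutrophil-like cluster of the eRT (208 cells, 201 of them from eRT replicate 2) had a ratio of 0.114. It stayed immune-like because only 8.81 UMIs were expected, so low Smarcb1 was not limited to tumor cells. Scrublet, run through scanpy 1.11.5, marked 20 cells, under the share at which it can be said to work, and doublets were left in.

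UMIs were summed per tumor and kind of cell, where there were at least 10 cells, and tested with edgeR 4.0.16 (TMM factors, filterByExpr, quasi-likelihood test, Benjamini-Hochberg adjustment over all genes at 0.05, two-sided), with the tumor as a block where its kinds were compared. The study's own test treats cells as replicates and was not used. Fold changes are given with the standard error. The script was tested on simulated data with known changes. Of genes changed 4-fold, 86.9% were called between tumor and immune-like cells, and 17.3% between the subtypes in tumor cells. Of genes changed 2-fold, 9.38% and 4% were called there, and 57.6% in tumor cells against the other kinds. In proliferating tumor cells 94% and in proliferating macrophage-like cells 47.7% of 2-fold changes were called. The members and lists were chosen with earlier results of these data known, so no p-value here is independent support for that choice. Named were all members, per list and direction up to 3 called genes with the largest change, and the 3 genes most like Myc, Mycn, Mycl and Mxd1. Genes from the rule that repeat another comparison are given as counts. Alternatives covered the tool (DESeq2 1.42.0), scaling, gene and cell filters, doublets, clustering resolution, the tumor rule, the block, the comparison cells, proliferating cells and each tumor left out.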

Additional observations from a re-analysis of the deposited data

Results flagged for a closer look

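Mxd4 stood higher in fibroblast-like cells, which enter no comparison above, than in tumor or immune-like cells. In the 75 fibroblast-like cells of eRT replicate 3 it was 116.4 CPM (exact Poisson 95% interval 76.7 to 169.4, 27 UMIs), while tumor cells of that tumor had 45.1 CPM and its immune-like cells 41.9 CPM. The interval lies above both levels. In the 17 fibroblast-like cells of MYC spinal replicate 3 it was 117.1 CPM, from 6 UMIs. The fibroblast-like cluster of the eRT had 4 Smarcb1 UMIs where 12.8 were expected, a ratio of 0.311 near the limit of 0.25 for tumor cells, and clusters 2 and 11 of eRT tumor cells were marked by fibroblast genes as well. The difference in Mxd4 was not tested over tumors.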

How the results depend on the processing

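Over all comparisons 81 results on members were recomputed under 1299 alternatives. Of these 1264 kept the side of the threshold, 23 fell below it and 11 rose past it. In 1 the direction changed and the reported fit or the alternative passed. Changes of direction where neither passed are counted among the 1264. Myc in tumor against immune-like cells, for example, ran from -0.27 to 0.82 and never passed. For tumor against immune-like cells the number of members past the threshold, 1, was 2 with DESeq2, with the highest Scrublet scores left out and at resolution 0.4. It was 0 with Smarcb1 under 0.5 as the rule for tumor clusters, and 0 against macrophage-like cells alone, where Mxd1 did not pass the filter. With each tumor left out it ran from 1 to 2, and was 2 without MYC spinal replicate 2. Over the kinds of cells the 8 calls became 5 at resolution 0.4 and 4 with Smarcb1 under 0.5, and with each tumor left out the lowest count was 5, without eRT replicate 1 or eRT replicate 2, and the highest 9. The change of direction that involved a call was Mxd1 in tumor cells against the mean of the other kinds. It came with Smarcb1 under 0.5, at 0.268 (adjusted p = 0.829), a rule that by its construction puts a cluster of neutrophil-like cells among the tumor cells. Proliferating tumor cells had 0 called members and 1, Mxd4, with at least 5 markers. Proliferating macrophage-like cells had 1 and, without eRT replicate 3, 2, with Mxd1 added (adjusted p = 0.0336). Where not stated, the cause was not tested.

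Counts of called genes ranged as follows. Tumor against immune-like cells gave 2488 genes, and 1222 with Smarcb1 under 0.5 to 3999 with every gene kept. Proliferating tumor cells gave 348, and 33 without the tumor block to 1036 with at least 5 markers, and proliferating macrophage-like cells 627, and 123 without the block to 887. Counts in neutrophil-like cells ran from 1248 to 3657 (2201 in the reported fit), in osteoclast-like cells from 736 to 2497 (1784), in NK cell-like cells from 535 to 1347 (1070), in B cell-like cells from 99 to 355 (265) and in progenitor-like cells from 18 to 267 (177). The share of calls that were higher also moved with the scaling. Without TMM factors it went from 59.9% to 74.6% in T cell-like, 46.6% to 69.9% in NK cell-like and 78.9% to 93.5% in B cell-like cells, and with DESeq2 from 94.9% to 82.0% in monocyte-like, 57.3% to 45.2% in osteoclast-like and 86.4% to 71.5% in progenitor-like cells. The 2 subtypes could not be compared in pairs, because the replicate numbers only name the tumors. Tumors of the same number in the 2 subtypes came from different mice. Depth limits the tumor cells of MYC spinal replicate 2 most, where 14 cells held 44013 UMIs, and Mycn, Mycl and Mxd3 in every kind.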

Other observations

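Clusters that took no name held 3535 cells. In them Mycl had 32 UMIs, more than the 30 in all immune-like cells, and 20 of these lay in MYC spinal replicates 1 and 2, at 22.3 CPM (exact Poisson 95% interval 9.63 to 44.0, 8 UMIs) and 20.5 CPM (10.6 to 35.9, 12 UMIs). In the other 4 tumors the unnamed cells had 0.457 to 5.01 CPM. Unnamed MYC spinal cluster 10 had the dendritic markers H2-DMb2 and Naaa, and unnamed cluster 24 had Ccl22 and Ccr7 among its leading genes. No MYC spinal cluster was named dendritic-like, and which unnamed clusters held the Mycl UMIs was not tested. Myc in unnamed cells ran from 12.7 to 54.9 CPM over the 6 tumors, a range that overlaps that of tumor cells.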
